A study of Mus musculus with 24 samples.

Results

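Potassium channel genes were followed in neurons and glia of the mouse hippocampus after kainate. They were taken as every gene of the count table whose symbol consists of Kcn, lower case letters and a number, and which had at least 10 counts in at least 3 of the 12 mRNAseq libraries. The pattern matched 92 genes, all with these counts, and Kcnj1 and Kcnk15 came closest to the limit with 4 libraries each. The rule left out 1 gene, so that 91 of 53379 genes remained, and all 91 were among the 37598 genes tested. They comprise pore-forming subunits and the auxiliary subunits that share the Kcn symbol, and fall into 15 subfamilies.

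The mice were adult male C57/BL6N, acquired at 8 weeks and kept for 4 weeks before surgery, and the study describes no transgene. Kainic acid, an agonist of ionotropic glutamate receptors, was injected into the deep cortex beside the hippocampus and elicited a status epilepticus (KA), whereas sham mice (SH) received saline. KA mice without convulsive seizures had been excluded. The right hippocampus was taken 24 h later and its nuclei were sorted by the neuronal protein NeuN into NeuN+ (neurons) and NeuN- (glia). The 4 groups, SH neurons, KA neurons, SH glia and KA glia, held 3 libraries each. A library came from a pool of 4 mice (replicate 1) or 2 mice (replicates 2 and 3), and neurons and glia of a pool came from the same mice. NeuN- nuclei are all nuclei without NeuN, so that endothelial cells and pericytes can be among them.

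Total counts were 7769400 to 40364768 per library. Within each cell type the libraries of replicate 3 had the fewest genes detected, 39704 and 42160 against 43123 to 46476 in neurons and 36165 and 37060 against 40660 to 47748 in glia. Markers followed the labels: 15 neuron genes summed to 6093 to 9400 counts per 1000000 (CPM) in NeuN+ libraries and to 544 to 1992 CPM in NeuN- libraries, so that neuronal RNA was present in NeuN- too. Between SH and KA glia, summed markers went from 14280 to 29770 down to 7488 to 14030 CPM for oligodendrocytes, from 1354 to 2439 down to 560 to 860 for their precursors, and from 1931 to 3016 down to 893 to 1779 for astrocytes. Between SH and KA neurons, those of dentate granule cells went from 692 to 1004 down to 411 to 426 CPM and those of CA1 pyramidal cells from 365 to 476 down to 332 to 357, while CA3 and interneuron markers overlapped. Not every marker followed the sum of its list, as given further on for Prox1 of the granule cells and Aqp4 of the astrocytes. In such mixtures fewer cells of a type and less RNA per cell cannot be told apart.

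Potassium channels pass potassium across the membrane and thereby set the resting potential, repolarise the action potential and limit repetitive firing. Voltage-gated (Kv) channels are tetramers of pore-forming alpha subunits, which are joined by beta subunits or, for Kv4, by calcium-binding Kv channel-interacting proteins. The other classes are calcium-activated, sodium-activated, inwardly rectifying and tandem-pore leak channels. In the hippocampus, Kv4 channels carry the dendritic A-type current and Kv7 channels the M-current, while inward rectifiers of glia take part in clearing potassium released by active neurons.

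The sequences shown here belong to Kcnip3 and Kcnip2, paralogous Kv channel-interacting proteins with values in opposite directions after KA, as given further on. In GRCm38, Kcnip3 (ENSMUSG00000079056) lies on chromosome 2 from 127456498 to 127522094 and Kcnip2 (ENSMUSG00000025221) on chromosome 19 from 45791839 to 45816061, both on the minus strand. RefSeq promoter entries (GRCm38.p6), which span 250 bases before to 50 after a start, were matched by symbol for 66 of the 91 genes, with 91 entries. Given 5′ to 3′ on the minus strand are the 250 bases before the outermost and the innermost of the Kcnip3 starts, chr2:127522095-127522344 and chr2:127482500-127482749, and before the Kcnip2 start, chr19:45816064-45816313. Capitals mark a match to the AP-1 motif.
Kcnip3, outermost start: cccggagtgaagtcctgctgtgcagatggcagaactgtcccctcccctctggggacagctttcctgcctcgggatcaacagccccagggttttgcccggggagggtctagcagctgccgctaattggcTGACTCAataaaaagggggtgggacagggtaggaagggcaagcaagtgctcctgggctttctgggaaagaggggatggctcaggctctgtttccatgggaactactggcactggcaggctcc
Kcnip3, innermost start: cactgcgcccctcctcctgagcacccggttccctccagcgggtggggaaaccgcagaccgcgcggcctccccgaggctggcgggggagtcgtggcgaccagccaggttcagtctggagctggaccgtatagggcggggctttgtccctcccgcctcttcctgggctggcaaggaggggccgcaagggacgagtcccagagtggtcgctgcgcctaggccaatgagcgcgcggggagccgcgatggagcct
Kcnip2: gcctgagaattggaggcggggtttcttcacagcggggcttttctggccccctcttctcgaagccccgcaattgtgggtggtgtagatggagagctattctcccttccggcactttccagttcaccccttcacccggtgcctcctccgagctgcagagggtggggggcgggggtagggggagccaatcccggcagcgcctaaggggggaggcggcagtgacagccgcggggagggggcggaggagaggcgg
Motifs of activity-regulated transcription factors were searched on both strands as TGANTCA (AP-1), TGACGTCA (CRE, which holds no complete AP-1 match) and GCGNGGGCG (EGR). The outermost Kcnip3 promoter held an AP-1 match 122 bases before the start, and the Kcnip2 promoter held none of these letters. Of all 32851 promoters 7.81% held an AP-1 match, 1.79% a CRE match and 5.55% an EGR match. Among the 91 entries of channel genes the shares were 4.4% (Kcnip3, Kcnip4, Kcne3 and Kcnk2), 0% and 4.4% (Kcna4, Kcng3, Kcnk2 and Kcnt2). A match describes letters and not a bound site.

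Levels were compared first between the cell types of SH mice, as CPM per kilobase of annotated exon, since CPM alone depend on gene length. In SH neurons, Kcnip2 stood highest with 78.8 ± 40.2 CPM per kb (SD, n = 3), followed by Kcna1, an axonal Kv1 subunit, with 57.1 ± 26.5 and Kcnj9, a G protein-gated inward rectifier, with 46.1 ± 17.1. Kcnd2 with 45.0 ± 5.53 and Kcnk1 with 42.5 ± 11.4 CPM per kb were among the next. Each of these genes differed from the one named before it by less than the spread between libraries. In SH glia, Kcna1 stood first with 148 ± 45.2 CPM per kb, followed by Kcnip3 with 26.7 ± 9.32, Kcnk1 with 26.7 ± 5.69, Kcnk13 with 25.9 ± 9.55 and Kcna6 with 24.8 ± 11.3, which did not differ from each other beyond their spread. Kv1 genes held 39.9% of the summed level of all 91 genes in SH glia and 11.9% in SH neurons. In SH glia most of this was Kcna1, with 148 of the 203 CPM per kb of the Kv1 genes.

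Of the 91 genes, 38 were higher in SH neurons than in SH glia at a false discovery rate (FDR) of 0.05, and 6 were higher in SH glia (edgeR quasi-likelihood test). Over all genes tested, 6.05% were higher in neurons and 4.67% in glia. With the pool of mice as a block the counts were 45 and 10, where 14.2% and 7.56% of all genes were called, and Kcna1, Kcnip3, Kcnh8 and Kcnj8 were added on the glial side. The neuronal count was 18 without SH glia replicate 1, 25 without SH neurons replicate 3, and 11 without SH glia replicate 1 and KA glia replicate 2, the libraries made from about 0.05 ng RNA.

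The neuronal side held every gene of Kv2 (2), Kv3 (4), the Kv beta subunits (3) and the sodium-activated channels (2), 7 of 10 electrically silent subunits, which form channels only together with other Kv subunits, and 4 of 8 EAG, ERG and ELK genes. Kcnh3, an ELK channel of the forebrain, had 103, 226 and 265 CPM in SH neurons and 1.85, 35.3 and 24.4 CPM in SH glia (log2 fold change, logFC, 3.26 ± 0.81 SE, FDR 0.0135). Kcnip2 had 217, 172 and 433 CPM in SH neurons and 7.88, 37.6 and 41.5 CPM in SH glia (logFC 3.24 ± 0.56, FDR 0.00134). All neuronal libraries lay above all glial libraries for both genes. The next largest logFCs were those of Kcnj4, a strong inward rectifier, with 3.03 ± 0.51, Kcnv1, a silent subunit, with 2.98 ± 0.45, and Kcnj9 with 2.97 ± 0.66. Kcnh3 and Kcnj9 lost their calls without both low-input libraries (FDR 0.0744 and 0.078), and Kcnh3 also without replicate 3 (0.0986). Over all alternatives their FDRs were 5.85e-05 to 0.0986 and 5.13e-05 to 0.078.

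On the glial side, Kcnk13, a tandem-pore channel known from microglia, had 72.4, 55.9 and 114 CPM in SH glia and 2.12, 4.05 and 11.96 CPM in SH neurons (logFC -3.73 ± 0.57, FDR 0.000529). Kcnj16, an inward rectifier of glia, had 37.4, 27.7 and 52.2 CPM in SH glia and 1.88, 1.85 and 5.51 CPM in SH neurons (logFC -3.66 ± 0.49, FDR 0.000189). The groups were apart for both. Kcnk6 (logFC -2.52 ± 0.49), Kcnk5 (-2.39 ± 0.62) and Kcna6 (-2.26 ± 0.48) followed, and Kcnj5 was the remaining gene. Kcnk5 lost its call without SH neurons replicate 1, SH neurons replicate 3 or all libraries of replicate 3 (FDR 0.0684, 0.0896 and 0.0715; range 0.000131 to 0.0896). Kcna6 shares 39.6% of its exon bases with Gm26673 on the opposite strand. Reads over more than 1 gene were left out, which lowers its counts.

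**Figure D1:**
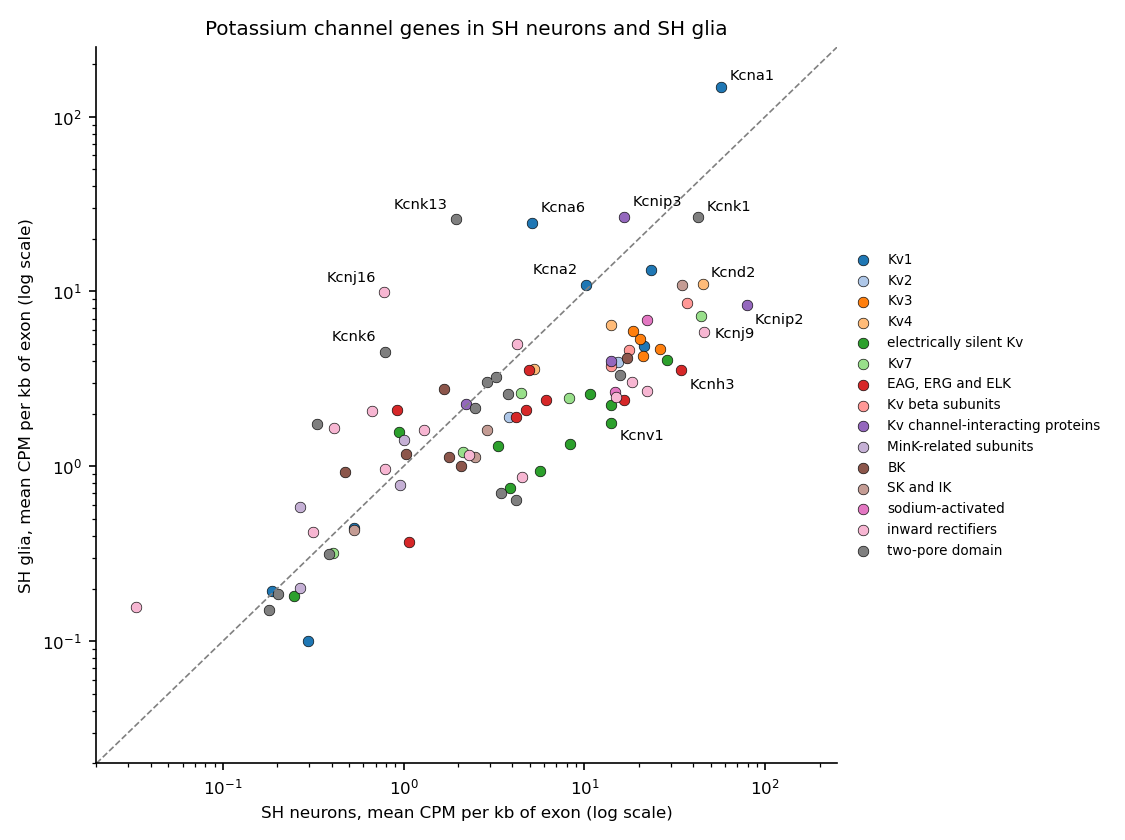
Mean level of each of the 91 potassium channel genes in SH neurons (horizontal) and SH glia (vertical), in CPM per kb of exon on log axes, coloured by subfamily, with a dashed line at equal levels. Kcnk13, Kcnj16, Kcna6 and Kcna1 lie on the glial side of the line, and Kcnip2, Kcnd2 and Kcnh3 on the neuronal side.

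Neuronal RNA in NeuN- libraries gives a level beside which low glial values can be read. The 15 neuron markers were in SH glia at a median of 24.1% of their level in SH neurons. Among the 38 channel genes higher in neurons this share was 10.4% to 49.9%, and 23 of them were at or below that of the markers. The part of neuronal RNA in the glial values was not tested.

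In neurons, Kcnip3 and Kcnip2, of the same small family, had the smallest FDRs for KA against SH with the replicate block. Kcnip3, also known as DREAM or calsenilin, had 42.2, 56.1 and 78.4 CPM in SH neurons and 109, 218 and 243 CPM in KA neurons. All KA libraries were above all SH libraries, and the means were 58.9 ± 18.2 and 189.8 ± 71.4 CPM (SD, n = 3). The logFC was 1.69 ± 0.44 (FDR 0.348), which misses the FDR of 0.25 used for KA against SH. With the replicate number as a block, which takes up what KA and SH libraries of the same number share, Kcnip3 rose by a logFC of 1.65 ± 0.24 (FDR 0.00073). In a fit of the neuron libraries alone, without a block, its FDR was 0.0285. Over the alternatives its logFC was 1.47 to 1.97 and its FDR 0.00073 to 1.0, with a call in 7 of 17.

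Kcnip2 went the other way, with 217, 172 and 433 CPM in SH neurons and 119, 82.0 and 96.7 CPM in KA neurons, again without overlap. The means were 274 ± 139.8 and 99.2 ± 18.5 CPM. Its logFC was -1.47 ± 0.53 (FDR 0.946) without the block and -1.36 ± 0.29 (FDR 0.0221) with it, with FDRs of 0.0221 to 1.0 over the alternatives. The ratio of Kcnip3 to Kcnip2 per kb within a library does not depend on how libraries are scaled. It was 0.191, 0.319 and 0.177 in SH neurons and 0.896, 2.6 and 2.46 in KA neurons, so that Kcnip3 exceeded Kcnip2 in KA replicates 2 and 3 and in no SH library of neurons. In glia, where Kcnip3 exceeded Kcnip2 in all libraries, it was 8.82, 2.11 and 3.13 in SH and 5.55, 4.63 and 6.43 in KA.

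The family has 2 further members. Kcnip4 had 49.0, 56.9 and 46.4 CPM in SH and 26.5, 34.6 and 34.0 CPM in KA neurons, without overlap and without a call (logFC -0.68 ± 0.33, FDR 1.0, block FDR 0.444). Kcnip1 had means of 13.7 ± 1.27 and 15.9 ± 3.57 CPM, with overlap.

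The pore-forming partners of this family are the Kv4 subunits. Kcnd2 (Kv4.2), the main dendritic A-type channel of pyramidal cells, had 211, 220.3 and 264 CPM in SH neurons and 125, 148 and 142 CPM in KA neurons. The groups did not overlap, and the logFC was -0.74 ± 0.37 (FDR 1.0) without and -0.74 ± 0.24 (FDR 0.209) with the block. Kcnd3 (Kv4.3) had 111, 119 and 176 CPM in SH and 167, 191 and 225 CPM in KA neurons, with overlap and no call (block FDR 0.476). Kcnd1 had means of 27.8 ± 6.56 and 26.1 ± 3.68 CPM. Dpp6 and Dpp10 encode transmembrane partners of Kv4, and neither was called in neurons, with 267 ± 79.7 and 318 ± 39.0 CPM for Dpp6 and 40.7 ± 3.66 and 35.1 ± 2.97 CPM for Dpp10 in SH and KA.

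**Figure D2:**
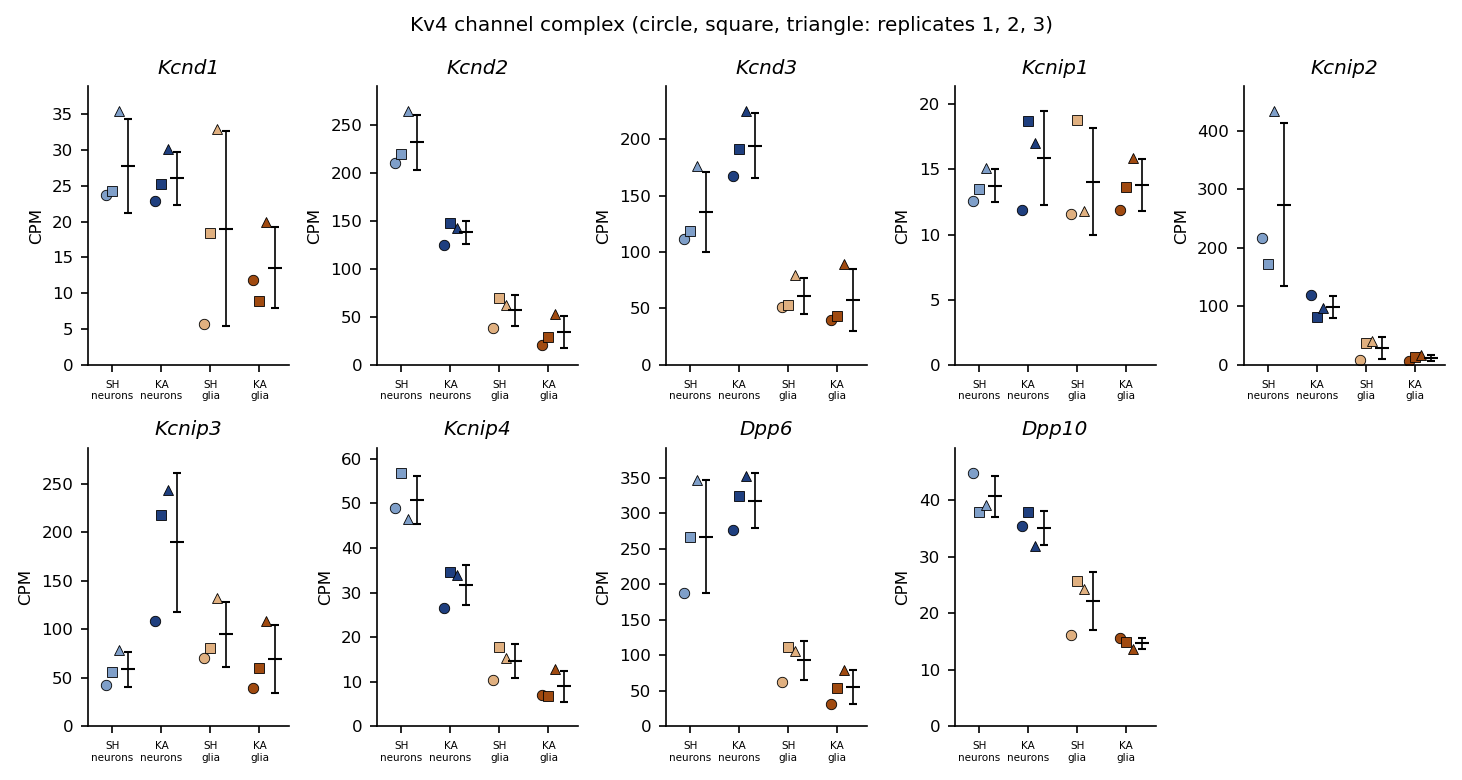
CPM of the Kv4 subunits, the 4 Kv channel-interacting proteins and the partners Dpp6 and Dpp10 in each library of the 4 groups, with mean and SD (n = 3). Kcnip3 is higher, and Kcnip2, Kcnip4 and Kcnd2 are lower, in every KA library of neurons than in any SH library of neurons.

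Over the whole set, no potassium channel gene passed an FDR of 0.25 in KA against SH neurons in either direction with edgeR's quasi-likelihood test and no block, where 0.279% of all genes were called higher and 0.0612% lower. At an unadjusted p below 0.05 there were 2 higher and 5 lower genes, 7.69% of the members against 3.2% of all genes. DESeq2 and the newer quasi-likelihood test of edgeR 4 called 1 gene higher each and none lower, while the fit above used the older test. A fit of the neuron libraries alone called 2 higher (Kcnip3 and Kcnf1) and 4 lower (Kcnip2, Kcnd2, Kcng2 and Kcnk4). The replicate block called 4 genes higher (1.94% of all genes) and 6 lower (1.11%). KA libraries lay above all SH libraries in 6 members (5.27% of all genes) and below in 12 (4.45%). The median logFC of the 91 genes was -0.03, with 44 above and 47 below 0, and that of all genes 0.00. The sign of the members' median changed with the block (0.03).

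Besides Kcnip3, the block called Kcnf1, Kcnk10 and Kcnk13 higher. Kcnf1 (Kv5.1), a silent subunit, had 33.7, 49.1 and 72.0 CPM in SH and 86.1, 112 and 112 CPM in KA neurons (logFC 1.00 ± 0.55, block FDR 0.0552). Kcnk10 (TREK-2), a mechanosensitive leak channel, had 27.8, 30.3 and 41.8 CPM in SH and 47.8, 65.2 and 56.4 CPM in KA (logFC 0.76 ± 0.31, FDR 1.0, block FDR 0.249). Neither overlapped between groups. Kcnk13 overlapped, with 2.12, 4.05 and 11.96 CPM in SH and 6.49, 10.8 and 11.7 CPM in KA neurons (block FDR 0.24). It was far higher in SH glia, with 72.4, 55.9 and 114 CPM. Microglia markers in NeuN+ libraries summed to 85.3, 53.7 and 105.9 CPM in SH and 46.6, 82.6 and 109.5 CPM in KA. The part of glial RNA in the Kcnk13 values of neurons was not tested. Kcnf1 and, in neurons, Kcnk13 were named after their values were seen.

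Called lower with the block were Kcnip2, Kcnd2, Kcng2, Kcnk4, Kcnc2 and Kcnt2. Kcng2 (Kv6.2), a silent subunit, had 83.0, 72.3 and 100.2 CPM in SH and 50.1, 40.5 and 32.4 CPM in KA neurons (logFC -1.06 ± 0.38, FDR 0.935, block FDR 0.0533). Kcnk4 (TRAAK), a leak channel related to Kcnk10, had 14.3, 17.1 and 24.2 CPM in SH and 9.22, 6.56 and 11.0 CPM in KA (logFC -1.06 ± 0.42, FDR 1.0, block FDR 0.208). These mechanosensitive relatives thus had opposite signs, while the third, Kcnk2 (TREK-1), had 16.1 ± 2.90 and 13.8 ± 1.11 CPM. Kcnc2 (Kv3.2), a fast channel of interneurons, had 126, 91.5 and 180.1 CPM in SH and 79.5, 70.7 and 80.2 CPM in KA (logFC -0.79 ± 0.33, FDR 1.0, block FDR 0.215). Kcnt2, a sodium-activated channel, had 112, 67.2 and 127 CPM in SH and 54.7, 50.6 and 63.0 CPM in KA (logFC -0.86 ± 0.36, FDR 1.0, block FDR 0.215). For all 6 genes every KA library lay below every SH library. Kcnk4 shares 13.1% of its exon bases with Catsperz.

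Over the alternatives, each of these 10 genes reached an FDR of 1.0 in at least 1 fit, and most of the calls depended on replicate 3. Without its libraries the block called only Kcnip3 higher (FDR 0.146) and no gene lower, with FDRs of 0.96 for Kcnip2, 0.41 for Kcnf1 and 1.0 for Kcng2. Kcnip3, Kcnip2, Kcng2, Kcnf1 and Kcnc2 were called both without replicate 1 and without replicate 2, and Kcnk10 and Kcnk13 in none of these fits. Of the 7 dentate granule cell markers, 3 were called lower in KA neurons without the block (Stxbp6, Plk5 and Calb1) and 5 with it. The others, Prox1 and Dsp, were not called. Prox1 had 149.9 ± 68.1 CPM in SH and 159.7 ± 35.1 CPM in KA neurons, with overlap. The part of these markers in the channel values was not tested.

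**Figure D3:**
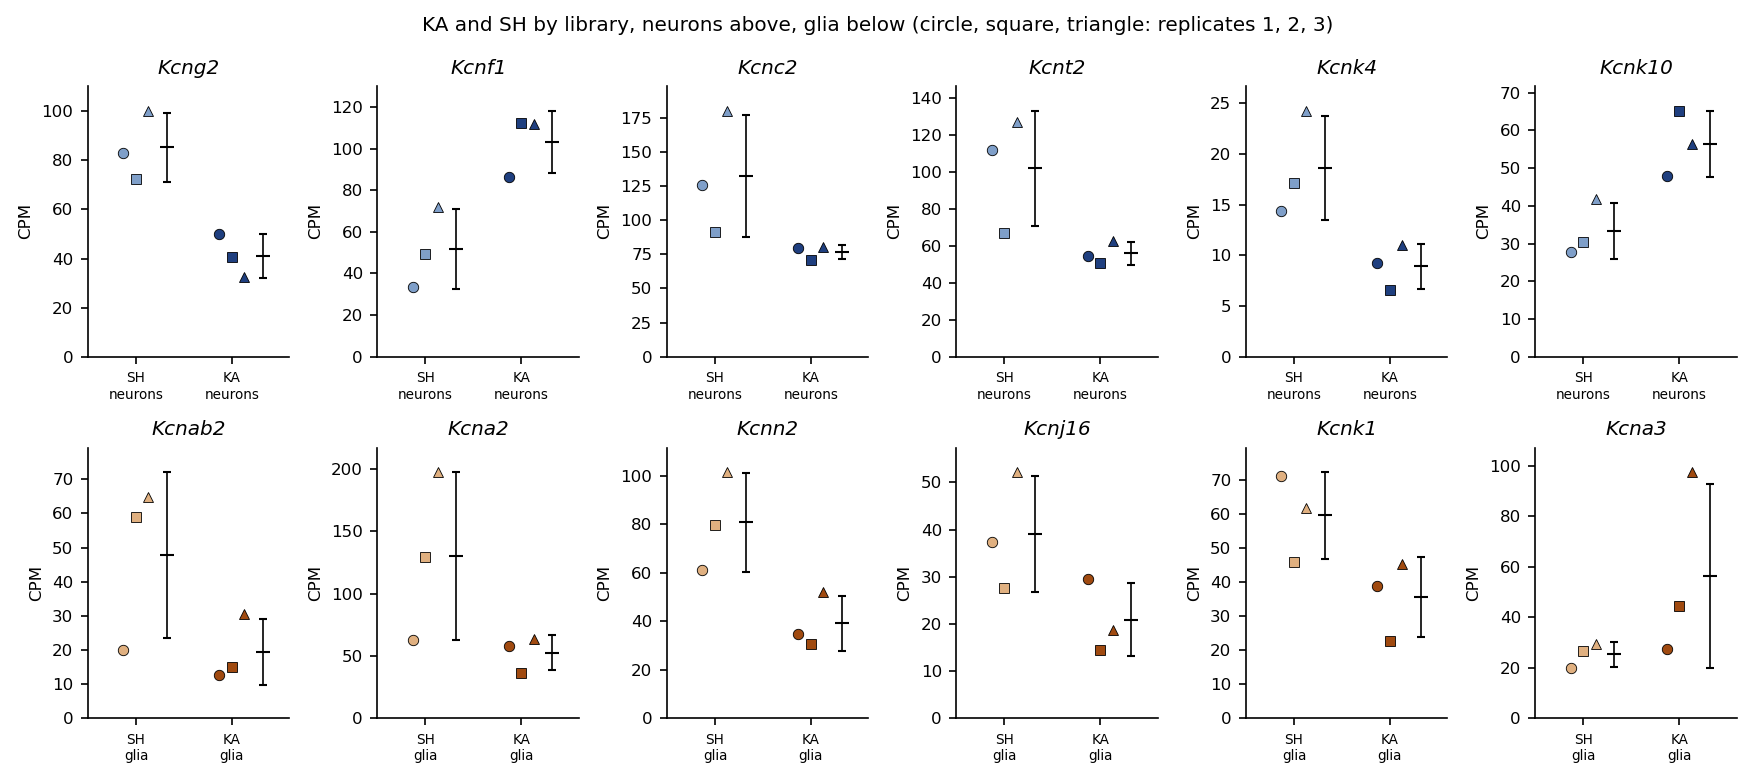
CPM by library for 6 potassium channel genes in SH and KA neurons (upper row) and 6 in SH and KA glia (lower row), with mean and SD (n = 3). In the upper row Kcnf1 and Kcnk10 are higher and the other 4 genes lower in every KA library, while in the lower row the groups are apart for Kcnn2 and Kcnk1 and overlap for the rest.

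Among the other voltage-gated channels, none passed an FDR of 0.25 in neurons in either fit. Kcnq3 and Kcnq5, subunits of the M-channel, had 65.4 ± 14.2 and 63.6 ± 24.2 CPM in SH and 50.4 ± 6.35 and 53.1 ± 3.59 in KA neurons. Kcnb2, a delayed rectifier, was without overlap, at 58.1 ± 13.3 CPM in SH and 39.0 ± 4.44 CPM in KA neurons (block FDR 0.6). Kcnc1, a fast Kv3 subunit, had 193 ± 87.3 CPM in SH and 229 ± 21.3 in KA. Of the Kv1 subunits, Kcna1 had 273 ± 126 and 273 ± 23.5 CPM, Kcna2 121 ± 60.5 and 124 ± 14.0, and Kcna4, an A-type subunit, 104 ± 44.3 and 166 ± 40.6 (block FDR 0.273). The beta subunits Kcnab1 and Kcnab2 were both without overlap, at 120.1 ± 9.71 and 206 ± 71.6 CPM in SH and 82.8 ± 12.8 and 129.8 ± 7.40 in KA neurons (block FDR 0.565 and 0.516). Kcnh7, an ERG channel, had 93.6 ± 14.4 and 75.7 ± 5.70 CPM.

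Of the calcium-activated and sodium-activated channels, the BK pore Kcnma1 had 292 ± 81.6 CPM in SH and 357 ± 67.4 in KA neurons, and its neuronal beta subunit Kcnmb4, which shares 31.5% of its exon bases with an antisense gene, 6.89 ± 1.85 and 7.04 ± 0.910. The SK channels of the afterhyperpolarisation, Kcnn2 and Kcnn3, had 259 ± 95.2 and 25.8 ± 7.69 CPM in SH and 271 ± 36.6 and 24.0 ± 4.94 in KA. Kcnt1, the paralog of Kcnt2, had 212 ± 77.6 and 221 ± 43.2 CPM. The groups overlapped for each of these and none was called.

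The G protein-gated subunits Kcnj3, Kcnj6 and Kcnj9, which mediate slow inhibition, had 95.8 ± 30.5, 114 ± 59.8 and 198 ± 73.4 CPM in SH neurons and 61.5 ± 6.56, 119 ± 26.7 and 127 ± 21.1 in KA neurons. None was called. Kcnj2, a strong inward rectifier, had 16.2, 30.7 and 22.7 CPM in SH and 33.0, 32.7 and 36.8 CPM in KA neurons. Kcnk1 (TWIK-1), a leak channel, had 121, 69.9 and 94.0 CPM in SH and 127, 131 and 149.7 CPM in KA. KA libraries lay above SH libraries for both, without a call (block FDR 0.565 and 0.536).

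In KA against SH glia, no channel gene passed an FDR of 0.25 without a block, where 0.442% of all genes were called higher and 0.306% lower. At an unadjusted p below 0.05 there were 3 higher and 7 lower genes, 11% of the members against 4.79% of all genes. DESeq2 called 4 lower (Kcna2, Kcnab2, Kcng2 and Kcnn2) and edgeR 4 none. The replicate block called 5 higher (3.47% of all genes) and 12 lower (4.17%). KA libraries lay above all SH libraries in 3 members (3.61% of all genes) and below in 9 (3%). The median logFC of the members was -0.14, with 37 above and 54 below 0, and that of all genes 0.14. The members' median was 0.02 without SH glia replicate 2, -0.39 without KA glia replicate 3 and -0.47 without both low-input libraries, so that single libraries decide its sign and size. Without replicate 3 the block called none in either direction (FDR 0.31 to 0.696 for the 17 genes, each of which reached 1.0 in at least 1 alternative), and without replicate 1 it called 2 higher and 19 lower.

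Kcnab2 (Kv beta 2), a partner of Kv1 channels, had 20.1, 58.9 and 64.7 CPM in SH and 12.6, 15.1 and 30.6 CPM in KA glia (logFC -1.30 ± 0.45, FDR 0.619, block FDR 0.0158). The groups overlapped through SH replicate 1, a low-input library, without which the gene passed with no block (logFC -1.58, FDR 0.215). Kcna2 (Kv1.2), a pore of axons that Kcnab2 joins, had 62.7, 129 and 197 CPM in SH and 57.7, 36.6 and 63.5 CPM in KA glia (logFC -1.30 ± 0.45, FDR 0.61, block FDR 0.0488). Kcnn2 had 60.9, 79.9 and 101 CPM in SH and 34.6, 30.7 and 52.0 CPM in KA, without overlap (logFC -1.05 ± 0.38, FDR 0.663, block FDR 0.0162). Over the alternatives the FDRs of these genes were 0.0158 to 1.0, 0.0488 to 1.0 and 0.0162 to 1.0.

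Of the 12 genes called lower in glia with the block, 9 belong to the 38 that were higher in SH neurons: Kcnab2, Kcnn2, Kcng2, Kcnip2, Kcnc2, Kcnd2, Kcnj3, Kcnt2 and Kcnab3. Kcng2 had 6.99, 16.8 and 12.4 CPM in SH and 3.74, 8.72 and 4.82 CPM in KA glia (FDR 0.673, block FDR 0.0412). Kcnip2 had 7.88, 37.6 and 41.5 CPM in SH and 7.04, 12.8 and 16.5 CPM in KA (FDR 0.899, block FDR 0.0743), and Kcnc2, without overlap, 34.3, 39.1 and 54.2 CPM in SH and 22.9, 20.3 and 29.0 CPM in KA (FDR 0.817, block FDR 0.0916). The block FDRs of Kcnd2, Kcnj3, Kcnt2 and Kcnab3 were 0.111, 0.133, 0.223 and 0.198, and Kcnj3 shares 31.1% of its exon bases with Gm26794. Neuron markers in glia summed to 691, 1797 and 1992 CPM in SH and to 544, 997 and 1776 CPM in KA, and 2 of 15 (Snap25 and Syp) were called lower with the block. Dentate granule cell markers summed to 256, 329 and 444 CPM in SH and to 183, 189 and 367 CPM in KA glia. Of these 7 genes, 2 were called lower without the block and 4 with it. Prox1, which was not called, had 155.9 ± 51.6 CPM in SH and 164.3 ± 95.7 CPM in KA glia. The part of both lists in these results was not tested.

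Kcnj16 had 37.4, 27.7 and 52.2 CPM in SH and 29.5, 14.6 and 18.7 CPM in KA glia, with overlap (logFC -0.90 ± 0.44, FDR 1.0, block FDR 0.161). Kcnk1 had 71.3, 46.1 and 61.7 CPM in SH and 39.0, 22.6 and 45.3 CPM in KA, with every KA library below every SH library (logFC -0.74 ± 0.35, FDR 1.0, block FDR 0.116). Many but not all glial markers were lower as well. With the block, 7 of 10 astrocyte, 5 of 8 oligodendrocyte and 4 of 5 precursor markers were called lower in KA glia. So were 3 of 10 microglia and 1 of 5 pericyte markers. The astrocyte markers Aldh1l1 and Atp13a4 were not called. Aqp4 went the other way, with 72.35, 88.2 and 101.5 CPM in SH and 157.7, 130.5 and 133.3 CPM in KA glia (block FDR 0.2508). The part of the markers in the channel values was not tested.

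Higher in KA glia with the block were Kcna3, Kcnk10, Kcns1, Kcna5 and Kcnn4. Kcna3 (Kv1.3), a channel of microglia and lymphocytes, had 19.9, 26.7 and 29.5 CPM in SH and 27.3, 44.3 and 97.5 CPM in KA glia (logFC 1.15 ± 0.43, FDR 0.728, block FDR 0.084). The highest value was that of replicate 3, and the groups overlapped. Kcnk10 had 23.6, 23.7 and 20.9 CPM in SH and 48.7, 28.0 and 37.4 CPM in KA without overlap (logFC 0.74 ± 0.31, FDR 0.866, block FDR 0.208), and was called higher with the block in both cell types. The other 3, named after their values were seen, were low. Kcna5 (Kv1.5) had 1.13, 2.04 and 0.657 CPM in SH and 4.52, 2.14 and 4.24 in KA, Kcnn4, the intermediate conductance channel known from microglia, 1.85, 3.70 and 1.11 in SH and 3.91, 8.68 and 4.78 in KA, and Kcns1, a silent subunit, 0.0804, 4.82 and 2.78 in SH and 2.87, 7.49 and 4.94 in KA. Without both low-input libraries the logFC of Kcns1 was 0.01, its value in SH replicate 1 being a single count (range 0.01 to 1.73). That of Kcna3 was 0.49 without KA glia replicate 3 (range 0.49 to 1.48). Summed microglia markers were 1119 to 2540 CPM in SH and 831 to 1672 in KA glia, and endothelial markers 12.7 to 47.2 and 21.8 to 67.7. Leukocyte markers summed to 93.6 to 100.8 and 116 to 149, mostly Ptprc (67.2 ± 11.7 and 85.6 ± 26.7). Among them Cd3e had 4.27 ± 4.87 and 3.51 ± 3.62 CPM. Ms4a1, called higher with the block, had 5.63, 9.01 and 0.12 CPM in SH and 20.25, 12.7 and 0.288 CPM in KA glia. The part of these cells in the channel values was not tested.

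The remaining genes high in glia were not called in either fit. Kcna1 had 482, 913 and 734 CPM in SH and 494, 345 and 881 CPM in KA glia, with overlap. Kcna6 had means of 147 ± 67.4 and 114 ± 52.1 CPM, Kcnk13 80.6 ± 29.7 and 61.8 ± 29.6, Kcnk6 18.8 ± 8.66 and 15.6 ± 4.75, and Kcnk5 5.97 ± 1.09 and 6.05 ± 0.474.

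Whether KA and SH differed by another amount in neurons than in glia was tested as the difference between both logFCs. Without a block no gene passed (0% of all genes, edgeR), 4 members had an unadjusted p below 0.05 (4.4%, against 1.34% of all genes), and DESeq2 and edgeR 4 called none. With the pool as a block 3 members passed, as did 0.471% of all genes. For Kcnip3, glia had 70.9, 80.9 and 132 CPM in SH and 39.9, 60.3 and 108 CPM in KA, with overlap and a logFC of -0.45 ± 0.43, opposite in sign to that in neurons. The difference was 2.13 ± 0.62 (FDR 1.0) without and 2.16 ± 0.29 (FDR 0.00969) with the block. Kcnk1 differed by 1.26 ± 0.49 (FDR 1.0) without and 1.33 ± 0.30 (FDR 0.168) with the block, and Kcna2 by 1.33 ± 0.63 (FDR 1.0) and 1.35 ± 0.32 (FDR 0.191). In all alternatives without the pool the FDRs were 0.269 to 1.0, 0.726 to 1.0 and 0.999 to 1.0, so that these 3 calls rest on the block.

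By subfamily, median logFCs in neurons ran from -0.54 for the 3 Kv beta subunits to 0.11 for the 5 Kv7 genes. All Kv beta genes were below 0 in neurons (-0.67 to -0.37) and glia (-1.30 to -0.49), and their summed level was 68.5 ± 15.4 CPM per kb in SH and 46.5 ± 6.09 in KA neurons. The 14 tandem-pore genes had a median of 0.08 in neurons, with 8 above 0, and of -0.27 in glia, with 9 below 0. Their summed level was 82.0 ± 3.39 and 100.5 ± 3.19 CPM per kb in SH and KA neurons, of which Kcnk1, which was not called, made up 42.5 ± 11.4 and 60.8 ± 5.43, and 75.3 ± 12.8 and 58.1 ± 13.3 in SH and KA glia. Without a block, no Kv4 gene and no Kv channel-interacting protein had a logFC above 0 in glia. The 14 inward rectifiers had 7 genes above and 7 below 0 in glia and 9 and 5 in neurons. The 4 MinK-related genes, small accessory subunits, summed to group means of 2.49 to 3.73 CPM per kb. A mean below 1 CPM in all groups was found for 6 genes, Kcna7, Kcna10, Kcne1, Kcnj1, Kcnk15 and Kcnk18.

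**Figure D4:**
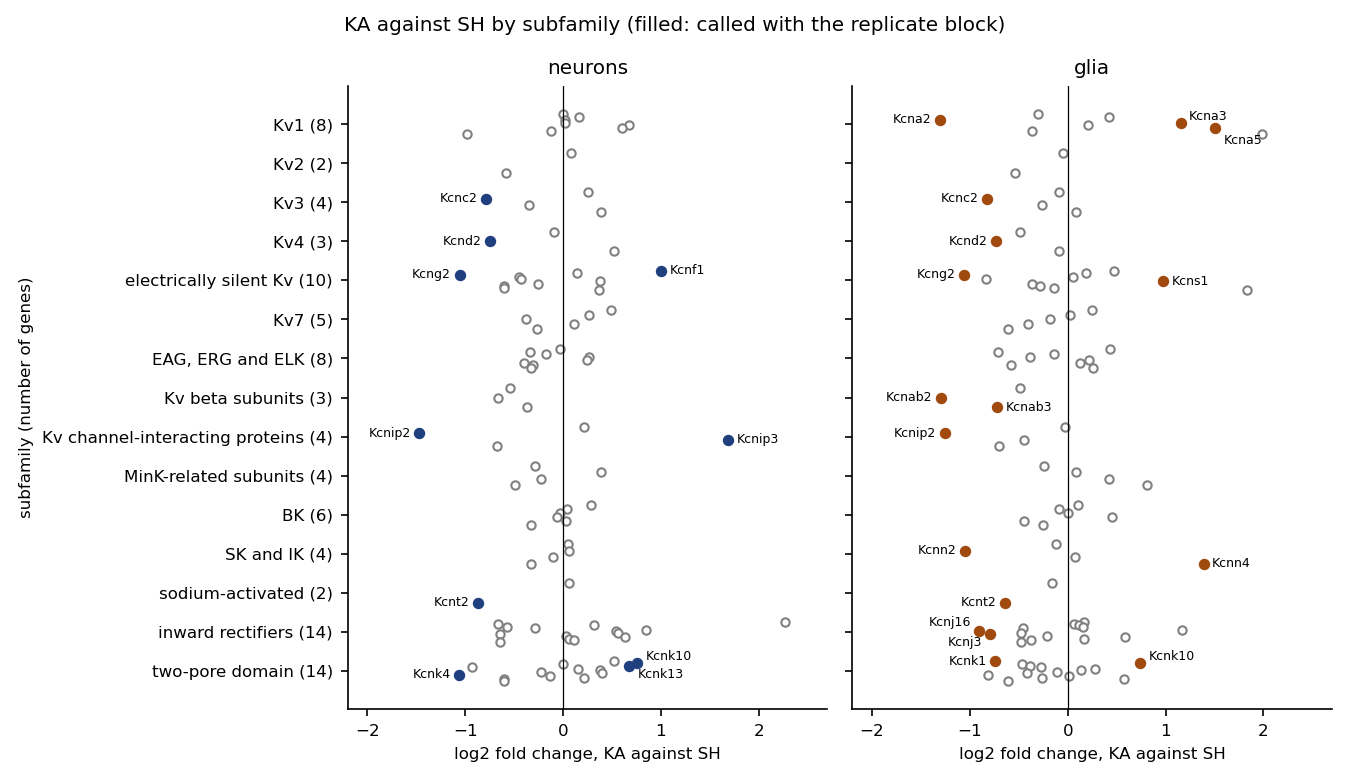
LogFC of KA against SH without a block for each of the 91 genes, by subfamily, in neurons (left) and glia (right), with filled points for the 10 and 17 genes called with the replicate block. In neurons, Kcnip3 is the called gene farthest to the right and Kcnip2 the one farthest to the left, and in glia 12 of the filled points lie below 0.

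Potassium handling also depends on genes without a Kcn symbol, of which 26 were listed: Kv channel partners, BK gamma subunits, sulfonylurea receptors, sodium pump subunits and cation-chloride cotransporters. None was called in neurons or glia without a block (edgeR). With it, 2 were lower in neurons (1.11% of all genes) and 11 lower in glia (4.17%), and none was higher. Abcc8, the sulfonylurea receptor SUR1 of ATP-sensitive channels, had 146, 199.7 and 358 CPM in SH and 93.8, 76.0 and 87.8 CPM in KA neurons (block FDR 0.0125). Its pore Kcnj11 had 13.9, 17.2 and 18.9 CPM in SH and 8.63, 11.7 and 11.3 CPM in KA (block FDR 0.739), and neither gene overlapped between groups. Atp1b2, a subunit of the sodium pump, was the other gene in neurons (block FDR 0.174). Among the 11 in glia were Dpp6, Cntn2, Lgi1, Adam22, Abcc8, Atp1b1, Atp1b3 and Slc12a2. Cntn2, which clusters Kv1 channels beside the node of Ranvier, had 958 ± 443 CPM in SH and 448 ± 206 in KA glia (block FDR 0.01), and Adam22, another Kv1 partner, 302 ± 148 and 149.6 ± 53.1 (block FDR 0.0361). Kcna2 and Kcnab2 were lower in the same fit, as were 5 of 8 oligodendrocyte markers. Of the 9 Kv channel partners listed, 4 were called lower in glia. Cntnap2 and Dlg4, from the same list, were not called (block logFC -0.09 and 0.16, FDR 0.939 and 0.903). Kcna1 was not called either (block logFC -0.36, FDR 0.708). The part of the oligodendrocyte markers in these values was not tested.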

How the data were processed

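The authors deposited raw counts per gene for 12 mRNAseq libraries. Per the labels and the study's methods, reads were trimmed (Trim Galore 0.4.3), aligned to mm10 and counted with Rsubread's featureCounts on GENCODE annotation, ignoring strand and leaving out reads over more than 1 gene, which lowers genes with overlapping exons. Methylation libraries were not used here. Genes without a symbol (105) were left out, and filterByExpr (minimum count 10, minimum total 15) kept 37598. CPM use TMM-scaled library sizes. edgeR 4.0.16 (R 4.3.3) fitted 4 group means by the older (legacy) form of its quasi-likelihood test. The newer form in the same package is the alternative named edgeR 4. Benjamini-Hochberg adjustment was over all genes tested, at an FDR of 0.25 for KA against SH and 0.05 between cell types. The fit without a block was tested on simulated counts. These held no effect shared by libraries of the same number, so that the fits with a block were not tested. Deviations from group means correlated between KA and SH libraries of the same replicate number (0.264 to 0.551 in neurons, 0.457 to 0.764 in glia), so that values with the number as a block are given beside the results. DESeq2 1.42.0, other scalings and filters, separate fits and fits without single libraries were alternatives. Named genes were the 8 with the smallest p per KA contrast, the 5 with the largest difference per direction between cell types, and a list of genes of hippocampal excitability. Members and lists were chosen with earlier results of these data known. Replicates are pools of mice, and no interval is given for counting error. Promoters came from RefSeq, exon overlaps from GENCODE M21. Values of some genes are not reported here.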

Additional observations from a re-analysis of the deposited data

Results flagged for a closer look

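For 3 genes the difference between KA and SH was another one in neurons than in glia, by the test of that difference with the pool as a block. It was 2.16 ± 0.29 (SE, log2 scale, FDR 0.00969, edgeR) for Kcnip3, 1.35 ± 0.32 (FDR 0.191) for Kcna2 and 1.33 ± 0.30 (FDR 0.168) for Kcnk1. Without the pool the FDR of each was 1.0 in the fit with all libraries, and 0.269 to 1.0, 0.999 to 1.0 and 0.726 to 1.0 over the alternatives. No group holds more than 3 libraries, so that single libraries were not tested as outliers.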

How the results depend on the processing

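Alternatives of single genes were computed for the 8 genes with the smallest p per KA contrast and for those called with a block. The 5 genes with the largest difference per direction between cell types were added. Chosen for their values in these data, such genes could hardly reverse, and other genes were not followed. None of the chosen genes changed sign in any alternative. The median logFC of the 91 genes did: in neurons it was -0.03, but 0.03 with the replicate block, 0.06 without SH neurons replicate 2 and 0.04 with 10 counts in every library, and in glia -0.14, but 0.02 without SH glia replicate 2 and 0.01 in separate fits. Of the counts of called genes, 117 were within 1.5 times the reported value and 29 were not. In KA against SH neurons, with 0 higher and 0 lower genes, separate fits of the cell types gave 2 and 4, the replicate block 4 and 6, a minimum of 10 counts in every library 2 higher, and upper quartile factors, edgeR 4 and DESeq2 1 higher each. In glia, also with 0 and 0, the replicate block gave 5 and 12, upper quartile factors 1 and 4, a minimum of 10 counts in every library 2 and 5, and DESeq2 4 lower. Leaving out 1 library at a time gave 0 to 1 higher and 0 lower genes in neurons, 0 to 1 in each direction in glia, and 18 to 38 genes higher in SH neurons and 4 to 8 higher in SH glia. Without both low-input libraries 11 were higher in SH neurons, and the pool block gave 10 higher in SH glia and 3 whose difference was unequal in the cell types. Calls with the block were repeated without each replicate number, a choice made after seeing the data: 1 to 3 higher and 0 to 8 lower genes in neurons, 0 to 7 higher and 0 to 19 lower in glia. The cause of these shifts was not tested. With 3 pools per group, the spread between libraries limits what can be called.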
